A study of Mus musculus with 12 samples.

Results

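The Slc2a genes encode facilitative hexose transporters, membrane proteins that let glucose and related sugars move down their gradients. Described here are 4 of them, Slc2a1, Slc2a3, Slc2a6 and Slc2a8, whose probes were found through the platform annotation. They had 6 probes among 31641, and each gene was read from its brightest probe, by mean signal. The family has 11 genes with a probe here out of 17759 genes with one, and 8 of the 11 were tested. The members were chosen on their differences between the genotypes, in which Slc2a3 and Slc2a6 shifted in opposite directions, so those differences are given as a description with no test.

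RNA of sorted mouse CD4 T cells was hybridised to 12 Illumina arrays, 3 for each of 4 populations. They are Foxp3-positive regulatory cells that lacked Blimp1 (CKO Treg), Foxp3-positive cells that had it (Ctrl Treg), Foxp3-negative effector cells that lacked it (CKO Teff) and Foxp3-negative effector cells that had it (Ctrl Teff). All came from naive CD4+CD44low cells with a Foxp3GFP reporter on a C57BL/6 background, labelled as 8 to 12 weeks old, which were put in equal numbers of both genotypes into RAG1-/- hosts, animals without T or B cells of their own, and were sorted by reporter and allotype after 6 to 8 weeks. Cells from spleen, gut-draining nodes and colonic lamina propria were combined and stimulated for 4 hours with PMA and ionomycin, in every group. What drives the deletion in CKO cells was not stated in the labels. Nothing in the labels ties replicates to separate animals, so every p-value measures the spread between these samples only. Values are deposited log2 intensities, the number of arrays limits their precision, and group means are given with their SD over 3 arrays (n = 3).

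In T cells, glucose enters through class I carriers at the surface. Slc2a1 encodes GLUT1, the carrier that activated T cells raise to feed glycolysis. Slc2a3 encodes GLUT3, a carrier with high affinity for glucose that is abundant in neurons and lymphocytes. Slc2a6 (GLUT6) and Slc2a8 (GLUT8) are class III proteins, which are held largely on membranes inside the cell, and GLUT6 is known from leukocytes, spleen and brain and has been placed on lysosomes.

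Both sorted populations carried T cell transcripts, and transcripts of other cells were present as well. All 8 measured T cell markers lay above the array median on all 12 arrays. The 5 measured Treg markers averaged 9.45 to 9.64 per array in CKO Treg and 10.09 to 10.61 in Ctrl Treg, against 7.19 to 7.87 in CKO Teff and 7.97 to 8.26 in Ctrl Teff. Foxp3 stood at 8.05 ± 0.67 in CKO Treg and 8.02 ± 0.84 in Ctrl Treg, against 4.64 ± 0.19 in CKO Teff and 4.58 ± 0.16 in Ctrl Teff. Prdm1, which encodes Blimp1, was brighter on arrays labelled CKO, at 9.04 ± 0.52 in CKO Treg against 5.77 ± 0.50 in Ctrl Treg and at 8.26 ± 0.64 in CKO Teff against 4.92 ± 0.41 in Ctrl Teff. The labels do not place its probe inside or outside the deleted part, so Prdm1 checks no label, and genotype directions below are those of the arrays labelled CKO and Ctrl. Of 12 neutrophil markers 8 lay above every array median on all arrays, and the levels of these markers are set beside the transporter results below.

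Promoters are printed for the members that RefSeq's table (GRCm38.p6) held, which were 3 of 4, because Slc2a6 and Slc2a1 were the members higher in CKO in every same-numbered pair and Slc2a8 is the class III relative of Slc2a6 that was near the array median. Each window runs from 250 bases before the gene's start to 50 after it. Capitals mark GAAAG, the core letters of the Blimp1 recognition motif, and ACGTG and GCGTG, the core letters of the hypoxia response element, on either strand.
Slc2a6, chr2:27027949-27028248, minus strand: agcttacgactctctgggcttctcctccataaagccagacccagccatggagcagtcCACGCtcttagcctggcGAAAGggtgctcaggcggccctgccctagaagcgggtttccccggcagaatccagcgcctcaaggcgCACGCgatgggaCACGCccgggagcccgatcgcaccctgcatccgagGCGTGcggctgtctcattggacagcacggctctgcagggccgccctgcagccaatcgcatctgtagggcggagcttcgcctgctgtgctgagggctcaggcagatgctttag
Slc2a1, chr4:119108495-119108794, plus strand: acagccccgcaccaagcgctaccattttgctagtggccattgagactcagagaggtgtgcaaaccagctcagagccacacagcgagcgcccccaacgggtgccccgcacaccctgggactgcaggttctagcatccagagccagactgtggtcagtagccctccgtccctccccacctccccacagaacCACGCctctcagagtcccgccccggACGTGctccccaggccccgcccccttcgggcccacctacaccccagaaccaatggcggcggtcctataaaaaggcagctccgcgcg
Slc2a8, chr2:32982034-32982333, minus strand: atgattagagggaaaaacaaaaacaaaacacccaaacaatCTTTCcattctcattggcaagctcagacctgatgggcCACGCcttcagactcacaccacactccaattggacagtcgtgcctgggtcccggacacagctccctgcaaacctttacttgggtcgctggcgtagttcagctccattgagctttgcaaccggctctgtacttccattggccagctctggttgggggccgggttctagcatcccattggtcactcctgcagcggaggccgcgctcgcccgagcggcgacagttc
The Slc2a6 window holds 4 matches to GCGTG, 1 to GAAAG and 0 to ACGTG. The Slc2a1 window holds 1 match to ACGTG, 1 to GCGTG and 0 to GAAAG, and the Slc2a8 window 1 to GAAAG, 1 to GCGTG and 0 to ACGTG. The 3 motifs were counted separately, and none of their letters overlapped in these windows. Among all 32851 promoter windows of the same length, GAAAG occurs in 57.3%, ACGTG in 19.6% and GCGTG in 32.4%. Those shares count windows with at least 1 match, and the share with 4 matches to GCGTG was not counted. G and C made up 64.7% of the Slc2a6 window, 65.3% of the Slc2a1 window and 55.7% of the Slc2a8 window. The marked matches describe the sequence and are not binding sites.

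Slc2a6 had the largest genotype difference of the 4 members in both cell types. In Treg its log2 intensity was 10.08, 10.12 and 9.76 on CKO arrays 1, 2 and 3, against 6.66, 7.52 and 7.36 on Ctrl arrays 1, 2 and 3. The groups did not overlap, and the lowest CKO array stood 2.23 above the highest Ctrl array. In Teff the values were 9.95, 9.38 and 10.44 on CKO arrays 1, 2 and 3, against 8.05, 6.91 and 7.80 on Ctrl arrays 1, 2 and 3. Again no CKO array overlapped the Ctrl arrays, with a gap of 1.33. The group means were 9.99 ± 0.20 in CKO Treg against 7.18 ± 0.46 in Ctrl Treg, and 9.92 ± 0.53 in CKO Teff against 7.59 ± 0.60 in Ctrl Teff. The log2 difference was 2.80 ± 0.35 (SE) in Treg, or 6.97-fold, and 2.34 ± 0.35 in Teff, or 5.05-fold. With the same-numbered pairs as a block the SE was 0.21 in both cell types. The CKO Treg and CKO Teff means differed by less than the spread between arrays. Among 12119 genes, 3 had a more positive Treg difference than Slc2a6, and its Teff difference was the 22nd highest. These differences chose the member, so nothing is read from its ranks.

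**Figure D1:**
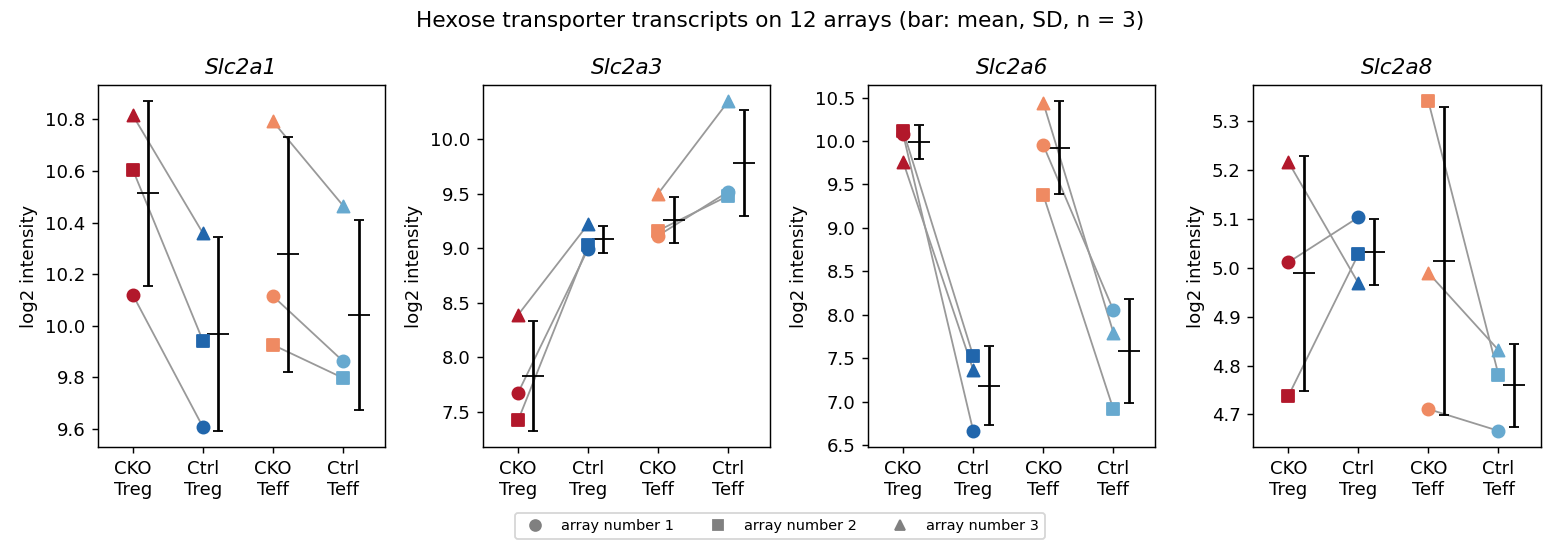
Log2 intensity (vertical axis) of the brightest probe of each member in CKO Treg, Ctrl Treg, CKO Teff and Ctrl Teff, with 1 symbol per array, grey lines joining same-numbered arrays of a cell type, and black bars for the mean and SD of 3 arrays. Slc2a6 is at 9.38 or more on every CKO array and at 8.05 or less on every Ctrl array, while Slc2a3 slopes the other way.

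Slc2a3 was lower in CKO, and most so in Treg. Its log2 intensity was 7.67, 7.42 and 8.39 on CKO Treg arrays 1, 2 and 3, against 8.99, 9.03 and 9.22 on Ctrl Treg arrays 1, 2 and 3. All 3 CKO Treg arrays lay below the Ctrl Treg arrays, by at least 0.61. In Teff it was 9.12, 9.16 and 9.50 on CKO arrays 1, 2 and 3, against 9.52, 9.48 and 10.35 on Ctrl arrays 1, 2 and 3. Here the groups overlapped by 0.02, since CKO Teff 3 lay just above Ctrl Teff 2, although each CKO array was below the Ctrl array of its own number. The means were 7.83 ± 0.50 in CKO Treg against 9.08 ± 0.12 in Ctrl Treg, and 9.26 ± 0.21 in CKO Teff against 9.78 ± 0.49 in Ctrl Teff. The log2 difference was −1.25 ± 0.28 (SE) in Treg, 2.39-fold lower, and −0.52 ± 0.28 in Teff, 1.44-fold lower. With the pairs as a block the SE was 0.17 in both cell types. Without Ctrl Teff 3 the Teff difference was −0.24. Slc2a3 had the 36th lowest Treg difference and the 202nd lowest Teff difference of 12119 genes. Both differences helped to choose it, so nothing is read from these ranks.

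Slc2a1 was slightly higher in CKO within every pair, while its groups overlapped. The log2 intensity was 10.12, 10.60 and 10.82 on CKO Treg arrays 1, 2 and 3, against 9.61, 9.94 and 10.36 on Ctrl Treg arrays 1, 2 and 3. In Teff it was 10.12, 9.93 and 10.79 on CKO arrays 1, 2 and 3, against 9.86, 9.80 and 10.47 on Ctrl arrays 1, 2 and 3. Within a cell type the array numbers came in the same order in both genotypes, and the lowest CKO array lay under the highest Ctrl array in both cell types. Means were 10.51 ± 0.36 in CKO Treg against 9.97 ± 0.38 in Ctrl Treg, and 10.28 ± 0.46 in CKO Teff against 10.04 ± 0.37 in Ctrl Teff. The difference was 0.54 ± 0.29 (SE) in Treg and 0.24 ± 0.29 in Teff, and with the pairs as a block the SE was 0.11 in both. Without CKO Teff 3 the Teff difference was −0.022.

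Slc2a8 lay near the array medians, which ran from 4.66 to 4.68, and showed no common direction. Its log2 intensity was 5.01, 4.74 and 5.22 on CKO Treg arrays 1, 2 and 3, against 5.10, 5.03 and 4.97 on Ctrl Treg arrays 1, 2 and 3. In Teff it was 4.71, 5.34 and 4.99 on CKO arrays 1, 2 and 3, against 4.67, 4.78 and 4.83 on Ctrl arrays 1, 2 and 3. The CKO arrays bracketed the Ctrl arrays in Treg, and in Teff the groups overlapped with the CKO array higher in each pair. Differences were −0.04 ± 0.17 (SE) in Treg and 0.25 ± 0.17 in Teff, and with the pairs as a block the SE was 0.15 in both. The Teff value was 0.090 without CKO Teff 2 and 0.41 without CKO Teff 1. The other Slc2a8 probes were dimmer: ILMN_2696642 exceeded the array median on 4 of 12 arrays, and ILMN_2664819 on 1.

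Within the 6 same-numbered pairs of both cell types the members moved apart. For Slc2a6 the CKO array was higher by 3.41, 2.59 and 2.39 in Treg pairs 1, 2 and 3 and by 1.90, 2.47 and 2.65 in Teff pairs 1, 2 and 3. For Slc2a3 the CKO minus Ctrl values were −1.32, −1.61 and −0.83 in the Treg pairs and −0.40, −0.32 and −0.85 in the Teff pairs. For Slc2a1 they were 0.51, 0.66 and 0.46 in the Treg pairs and 0.25, 0.13 and 0.33 in the Teff pairs. Thus Slc2a1 and Slc2a6 were higher in 6 of 6 pairs, and Slc2a3 was higher in 0 of 6. Of all genes tested, 3.01% were higher and 3.67% lower in CKO in all 6 pairs. For Slc2a8 the values were −0.09, −0.29 and 0.25 in Treg and 0.04, 0.56 and 0.16 in Teff, with both signs among the Treg pairs. In Treg 2 of the 4 members, Slc2a3 and Slc2a6, had groups that did not overlap, beside 12.3% of all genes, and in Teff 1 of 4, Slc2a6, beside 6.77%. These contrasts chose the members, so nothing is read from the counts.

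**Figure D2:**
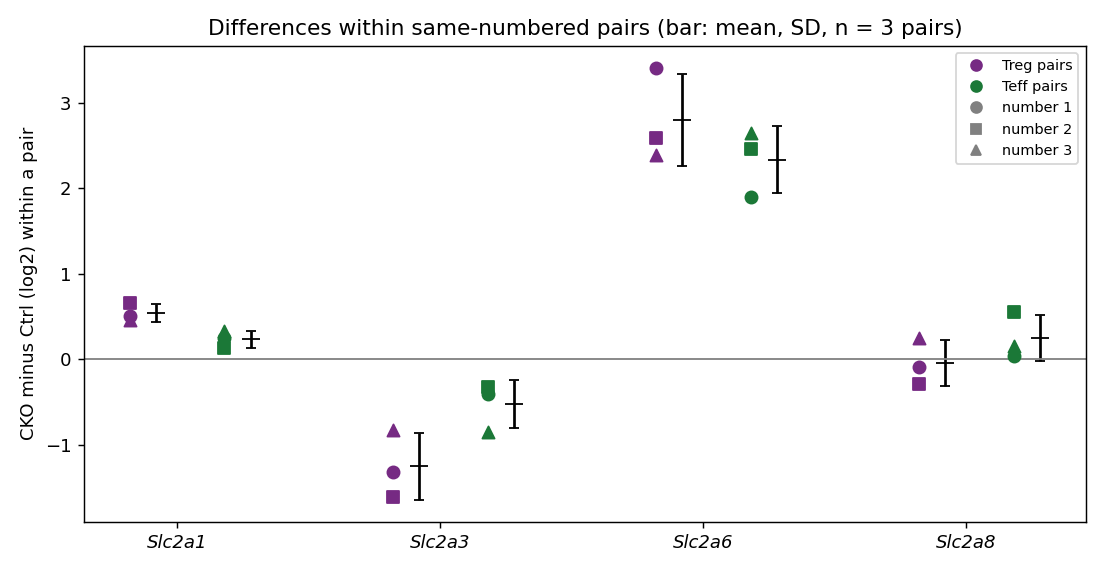
CKO minus Ctrl log2 intensity within each same-numbered pair (vertical axis) for the 4 members, Treg pairs in purple and Teff pairs in green, with the mean and SD of 3 pairs in black. All 6 Slc2a6 points and all 6 Slc2a1 points lie above 0, all 6 Slc2a3 points lie below 0, and the Slc2a8 points lie on both sides.

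The difference between the members was also read inside each array, which restates the genotype differences that chose them. The log2 signal of Slc2a6 minus that of Slc2a3 shifted by 4.06 ± 0.77 (SD, n = 3 pairs) between CKO Treg and Ctrl Treg, and by 2.86 ± 0.60 between CKO Teff and Ctrl Teff. Slc2a1 minus Slc2a3 shifted by 1.80 ± 0.49 in Treg and 0.76 ± 0.37 in Teff. These are shifts of a difference between probes, and they say nothing of which transporter is more abundant.

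Among arrays of the same population, Slc2a1 and Slc2a3 varied together. For both genes the array numbered 3 was the highest of its group in 4 of 4 groups. Within a cell type the same-numbered arrays of both genotypes are paired, so these 4 groups are not independent. The share of all genes with this pattern was not counted, so nothing is read from it. After each group's mean was taken off, their Pearson r over the 12 arrays was 0.71, as a description over arrays that share numbers, and without that step it was −0.18. Slc2a6 followed no such number, being highest on array 1 in 1 group, on array 2 in 2 groups and on array 3 in 1 group. Its r with Slc2a3 was 0.16 with group means removed and −0.50 without.

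The next comparison set Treg against Teff, a difference that was not itself used to choose the members. It is built, however, from the same array values as the genotype differences that chose them. The low CKO Treg values helped to choose Slc2a3 and are also 1 side of its comparison in CKO. Its p-values and calls there are therefore not independent of the choice and are read as a description. By limma with Benjamini-Hochberg adjustment over 12119 genes, 0 of 4 members passed in Ctrl, beside 1.01% of all genes, and 0 of 4 in CKO, beside 0.355%. At an unadjusted p under 0.05 there was 1 member in each, Slc2a3, beside 10.4% of all genes in Ctrl and 10.8% in CKO. It averaged 9.08 ± 0.12 in Ctrl Treg and 9.78 ± 0.49 in Ctrl Teff, a log2 difference of −0.70 ± 0.28 (SE) with an adjusted p of 0.382, and of −0.42 without Ctrl Teff 3. In CKO the means were 7.83 ± 0.50 in Treg and 9.26 ± 0.21 in Teff, a difference of −1.43 ± 0.28 with an adjusted p of 0.0603. No Treg array of Slc2a3 reached a Teff array of the same genotype, with a gap of 0.26 in Ctrl and 0.73 in CKO. The CKO value passed under some alternative settings, at an adjusted p of 0.0349 with only probes above the 75th percentile and 0.0364 with trend and robust settings, and its adjusted p was 0.0511 with the replicate number as a block. Leaving out 1 array, or both arrays of a number and cell type, gave adjusted p from 0.0259 (without both Teff arrays numbered 3) to 0.275. It also passed without Ctrl Teff 3 (0.0344) or CKO Treg 3 (0.0406).

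For Slc2a6 the Treg minus Teff difference was −0.40 (95% interval −1.17 to 0.36, adjusted p = 0.817) in Ctrl and 0.06 (−0.71 to 0.83, adjusted p = 0.975) in CKO. Leaving out 1 array moved the Ctrl value to −0.14 (without Ctrl Treg 1), −0.17 (without Ctrl Teff 1) or −0.74 (without Ctrl Teff 2). For Slc2a1 it was −0.07 (−0.72 to 0.57, adjusted p = 0.982) in Ctrl and 0.24 (−0.41 to 0.88, adjusted p = 0.851) in CKO. For Slc2a8 it was 0.27 (−0.10 to 0.65, adjusted p = 0.687) in Ctrl, where the groups did not overlap, and −0.03 (−0.40 to 0.35, adjusted p = 0.979) in CKO. These intervals leave room for differences in either direction. Groups did not overlap for 2 of 4 members in Ctrl, Slc2a3 and Slc2a8, beside 14.3% of all genes, and for 1 of 4 in CKO, Slc2a3, beside 13.7%. The Slc2a8 difference in Ctrl rests on its brightest probe. ILMN_2696642 leaned the other way, at 4.57 ± 0.05 in Ctrl Treg against 4.65 ± 0.16 in Ctrl Teff. ILMN_2664819 stood at 4.51 ± 0.23 against 4.49 ± 0.06.

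Each member had its own order of levels over the 4 populations. Slc2a3 was lowest in CKO Treg (7.83), then Ctrl Treg (9.08), CKO Teff (9.26) and Ctrl Teff (9.78), and the neighbours Ctrl Treg and CKO Teff were closer than their spread. Slc2a6 ran from Ctrl Treg (7.18) and Ctrl Teff (7.59) to CKO Teff (9.92) and CKO Treg (9.99), so that only the step between the genotypes exceeded the spread. Slc2a1 ran from Ctrl Treg (9.97) through Ctrl Teff (10.04) and CKO Teff (10.28) to CKO Treg (10.51), each step being smaller than the SD of the groups. For Slc2a8 the order was Ctrl Teff (4.76), CKO Treg (4.99), CKO Teff (5.01) and Ctrl Treg (5.03), the last 3 within their spread.

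Signals of other cells moved across the same arrays. The mean of 12 neutrophil markers was 8.32, 6.06 and 8.48 on CKO Treg 1, 2 and 3 against 9.35, 6.35 and 8.91 on Ctrl Treg 1, 2 and 3. Its values for arrays 1, 2 and 3 were 9.23, 9.68 and 7.23 in CKO Teff, against 8.18, 10.22 and 6.41 in Ctrl Teff. The mean differed between CKO and Ctrl by −1.03, −0.29 and −0.43 in Treg pairs 1, 2 and 3 and by 1.05, −0.54 and 0.82 in Teff pairs 1, 2 and 3, and its part in the Slc2a3 and Slc2a6 differences was not tested. For 7 basophil and mast cell markers, arrays 1, 2 and 3 averaged 9.42, 8.84 and 5.37 in CKO Teff, against 5.37, 6.19 and 4.85 in Ctrl Teff. Of these, Ms4a2 lay under the highest array median on every array, and 2 lay above every median. CKO was higher by 4.05, 2.65 and 0.53 in Teff pairs 1, 2 and 3, and the part of these cells in the Slc2a6 difference was not tested. On Treg arrays the basophil and mast cell mean was 5.06 to 5.44 in CKO and 5.03 to 5.55 in Ctrl.

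Markers of further populations were read in the same way. The mean of 13 macrophage and dendritic cell markers, 7 of them above every array median, was 6.38 to 6.64 in CKO Treg against 5.98 to 6.97 in Ctrl Treg, and 6.35 to 7.39 in CKO Teff against 5.45 to 7.20 in Ctrl Teff. In Teff it was higher in CKO by 0.91, 0.19 and 0.90 in pairs 1, 2 and 3, and its part in the Slc2a6 difference there was not tested. Of 8 NK and CD8 cell markers 2 lay above every array median, and 2, Cd8a and Ncr1, lay under the highest median on every array. Their mean was 5.35 to 5.49 in CKO Treg against 5.46 to 5.76 in Ctrl Treg. In Teff it was 5.76 to 7.30 in CKO against 5.72 to 5.91 in Ctrl. CKO was higher by 0.82, 1.39 and 0.04 in Teff pairs 1, 2 and 3, and its part in the Slc2a6 difference was not tested. For 3 B cell markers, 0 of them above every array median, group ranges lay between 4.49 and 4.72, and for 3 erythroid markers between 4.63 and 5.65. The T cell mean was lower in CKO, at 10.28 to 10.44 in CKO Treg against 10.55 to 10.93 in Ctrl Treg and at 10.08 to 10.32 in CKO Teff against 10.66 to 10.73 in Ctrl Teff, and its part in the transporter differences was not tested. In such bulk samples fewer cells of a type and less RNA per cell cannot be told apart.

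**Figure D3:**
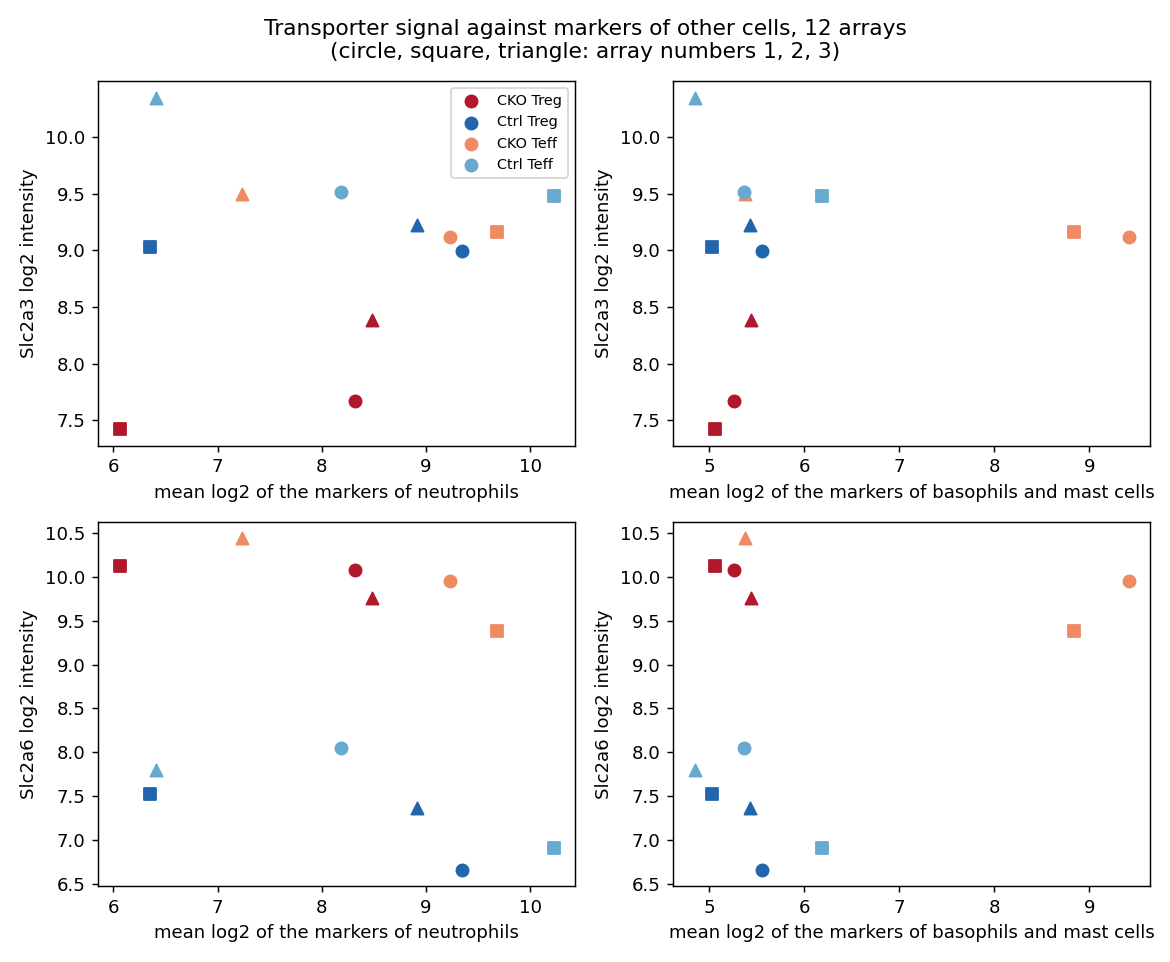
Log2 intensity of Slc2a3 (top) and Slc2a6 (bottom) against the mean log2 intensity of the neutrophil markers (left) and of the basophil and mast cell markers (right), with 1 symbol per array and colours for the 4 populations. CKO Teff arrays 1 and 2 stand at the far right of the basophil and mast cell axis.

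The rest of the family showed little signal. Of the 8 other Slc2a genes listed, 7 had a probe and 4 were tested, namely Slc2a4, the insulin-responsive carrier of muscle and fat, Slc2a9, a urate carrier, Slc2a10 and Slc2a13, a proton-coupled inositol carrier. By limma 0 of these 4 passed in any of the 4 comparisons. At an unadjusted p under 0.05 there was 1, Slc2a10 between Ctrl Treg and Ctrl Teff, beside 10.4% of all genes in that comparison. It stood at 4.62 ± 0.10 against 4.94 ± 0.26 (limma, adjusted p = 0.473). Their genotype differences lay near 0, with medians of 0.11 in Treg and 0.06 in Teff beside 0.00 and −0.02 over all genes tested. Slc2a13 stood at 4.92 ± 0.15 in CKO Treg against 4.71 ± 0.11 in Ctrl Treg, a difference of 0.21 ± 0.14 (adjusted p = 1.00). Slc2a9 was at 4.83 ± 0.14 in CKO Treg against 4.65 ± 0.09 in Ctrl Treg, a difference of 0.18 ± 0.10 (adjusted p = 1.00). Slc2a4 was at 4.52 ± 0.01 in CKO Treg against 4.58 ± 0.10 in Ctrl Treg. Probes of Slc2a2, Slc2a5 and Slc2a12 did not exceed the array median on 3 arrays and were not tested. Of 7 sodium-coupled sugar carriers 1 was tested, the renal glucose carrier gene Slc5a2, and it passed in 0 comparisons, at 4.80 ± 0.11 in CKO Treg against 4.79 ± 0.05 in Ctrl Treg and 4.55 ± 0.19 in CKO Teff against 4.63 ± 0.08 in Ctrl Teff.

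**Figure D4:**
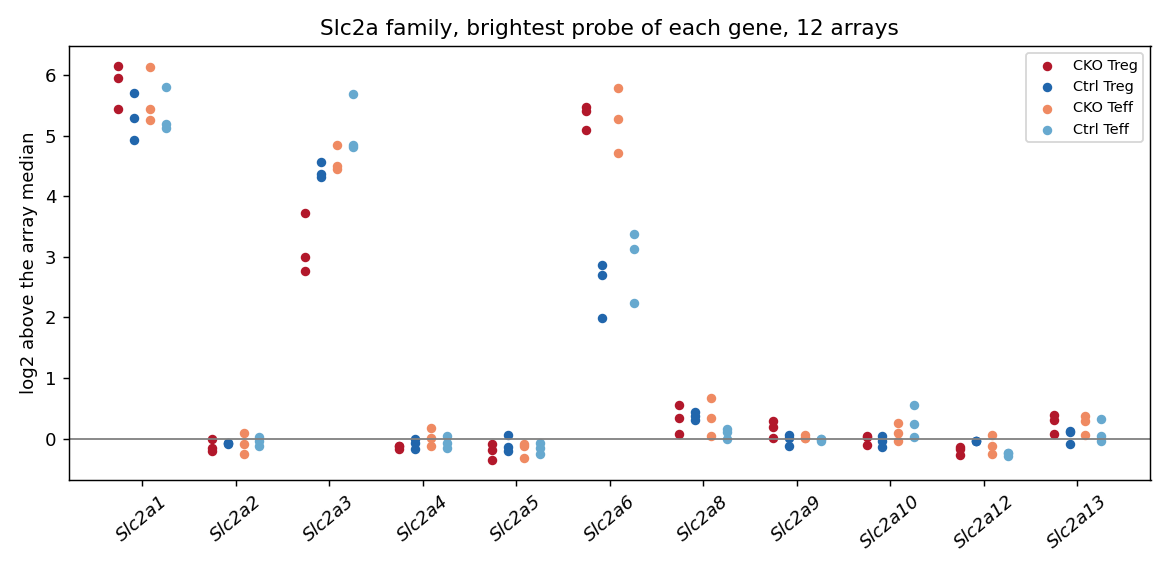
Log2 intensity above the median of its own array (vertical axis) for the brightest probe of each of 11 Slc2a genes, with 1 point per array in the order CKO Treg, Ctrl Treg, CKO Teff, Ctrl Teff. Slc2a1, Slc2a3 and Slc2a6 lie well above the median on all arrays and the others lie within 1 of it, and heights of different probes are not comparable.

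Genes that act beside the transporters were examined through 3 further lists, with 26 genes tested. Regulators of transporter levels gave the 1 gene that passed in the fit without the pairs as a block. Hif1a, the oxygen-sensing factor that induces glucose carriers and glycolytic enzymes, was 8.52, 8.33 and 8.37 on CKO Treg 1, 2 and 3 against 7.41, 6.83 and 7.31 on Ctrl Treg 1, 2 and 3. It rose by 1.23 ± 0.16 in CKO Treg (limma, adjusted p = 0.0164, beside 0.0413% of all genes passing as higher and 0.099% in either direction), and lost that call in 9 of its 27 alternatives, with adjusted p from 0.00523 to 0.228. The call ended without CKO Treg 1 (0.122), CKO Treg 2 (0.0879) or CKO Treg 3 (0.0882), with trend and robust settings (0.0552), with only the Treg arrays (0.0606), and when both arrays of a number were left out, in 4 of 6 such fits. In Teff Hif1a differed by 0.02 ± 0.16 (adjusted p = 1.00, beside 0.0165% of all genes passing), and the difference between the cell types had an adjusted p of 0.519.

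Txnip and Arrdc4 encode arrestin-family proteins that remove glucose carriers from the cell surface, and both are transcribed under control of the glucose-sensing Mlx and Mlxip factors. Txnip was 8.04, 7.92 and 8.49 on CKO Treg 1, 2 and 3 against 8.65, 8.71 and 9.17 on Ctrl Treg 1, 2 and 3. The groups did not overlap, as was so for 12.3% of all genes. Its difference of −0.69 ± 0.21 missed the threshold (adjusted p = 0.502) and passed with the pairs as a block (adjusted p = 0.0180), with which 2.18% of all genes passed. In Teff it differed by −0.05 ± 0.21 (adjusted p = 1.00). Arrdc4 differed by −0.63 ± 0.53 in Treg and 0.54 ± 0.53 in Teff (adjusted p = 1.00 each). Mlx stood at 0.02 ± 0.18 in Treg and −0.26 ± 0.18 in Teff (adjusted p = 1.00 each). Of the 12 regulators tested, 1 passed as higher in Treg and 0 in Teff, with 3 in Treg (beside 5.33% of all genes) and 0 in Teff (beside 4.17%) at an unadjusted p under 0.05, and the list medians were −0.05 and 0.01. Between Treg and Teff 0 of them passed in either genotype, with 4 in Ctrl (beside 10.4% of all genes) and 3 in CKO (beside 10.8%) at an unadjusted p under 0.05.

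Steps that follow sugar entry gave no gene that passed in the fit without the pairs as a block. Of 10 tested genes of sugar trapping and first conversion, 0 passed in either genotype comparison by limma, with 1 in Treg (beside 5.33% of all genes) and 0 in Teff (beside 4.17%) at an unadjusted p under 0.05. That gene was G6pc3, a glucose-6-phosphatase, which was 7.29, 6.49 and 7.13 on CKO Treg 1, 2 and 3 against 6.65, 5.94 and 6.18 on Ctrl Treg 1, 2 and 3, so that the groups overlapped while every pair was higher in CKO. Its difference of 0.71 ± 0.31 missed the threshold by limma (adjusted p = 0.906). With the pairs as a block it passed (adjusted p = 0.0229), as did 2.18% of all genes. Pgm1, a phosphoglucomutase, was at 9.74 ± 0.36 in CKO Treg and 8.59 ± 0.68 in CKO Teff (difference 1.15 ± 0.37, adjusted p = 0.257). Galm, which interconverts the anomers of hexoses, differed by 0.19 ± 0.19 in Treg and −0.37 ± 0.19 in Teff, and Mpi, a mannose phosphate isomerase, by 0.29 ± 0.26 and 0.47 ± 0.26 (adjusted p = 1.00 for all 4).

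Of the 4 tested genes of lactate production and export, 0 passed in any comparison, and at an unadjusted p under 0.05 there was 1 between Treg and Teff in Ctrl (beside 10.4% of all genes) and 1 in CKO (beside 10.8%), with 0 between the genotypes in Treg (beside 5.33%) and in Teff (beside 4.17%). Ldha, lactate dehydrogenase A, was at 12.74 ± 0.26 in Ctrl Treg and 12.03 ± 0.21 in Ctrl Teff, a difference of 0.71 ± 0.16 (adjusted p = 0.0839). In CKO it was at 12.75 ± 0.09 in Treg and 12.31 ± 0.19 in Teff (0.45 ± 0.16, adjusted p = 0.335). Between the genotypes Ldha differed by 0.01 ± 0.16 in Treg and 0.28 ± 0.16 in Teff. The lactate carriers Slc16a1 and Slc16a3 and their chaperone Bsg had genotype differences between −0.09 and 0.23, from signals near the array median.

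**Figure D5:**
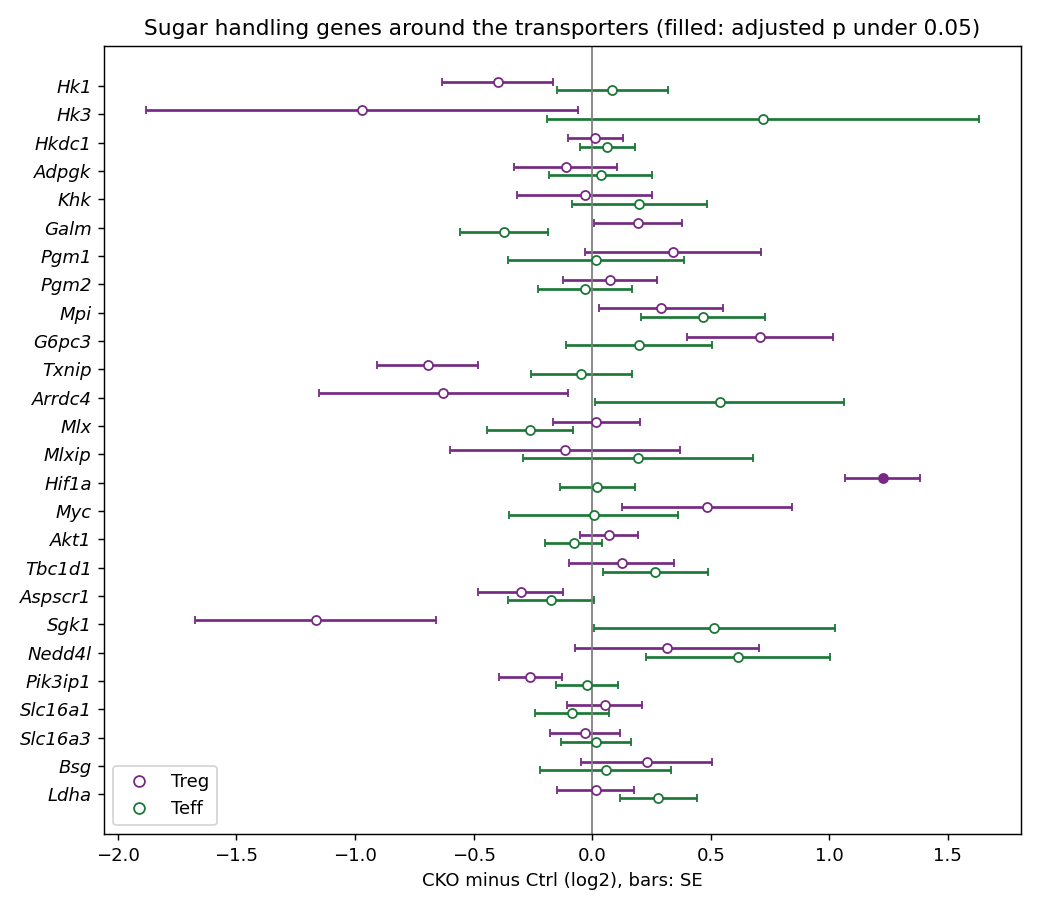
CKO minus Ctrl log2 difference with its SE (horizontal axis) for the 26 tested genes of sugar trapping, transporter regulation and lactate export, Treg above Teff for each gene. The filled symbol, Hif1a in Treg at 1.23, is the single difference past the threshold in the fit without the pairs as a block.

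Genes with the most similar pattern were sought by Pearson r over all 12 arrays, which share their processing and, within a cell type, replicate numbers, as a description. Slc2a6 ran with Hspa2, a heat shock protein (r = 0.89, Spearman rho 0.85), Adh4 (0.86, rho 0.90) and Zdhhc13 (0.86, rho 0.80), and ran opposite to Prkch, a protein kinase C (−0.90, rho −0.93), Il10, the anti-inflammatory cytokine (−0.88, rho −0.86), and LTO1 (−0.85, rho −0.85). Il10 differed by −5.24 in Treg and −2.46 in Teff between the genotypes. With group means removed, the r of Slc2a6 was 0.56 with Hspa2, 0.54 with Adh4 and 0.27 with Zdhhc13. It was −0.68 with Prkch, −0.47 with Il10 and −0.48 with LTO1, so much of this likeness lay between the groups. Slc2a3 was nearest to Arhgef6 (0.91, rho 0.73), Gnptab (0.90, rho 0.83) and Foxp1, a forkhead factor of quiescent T cells (0.89, rho 0.78), and farthest from Spsb1 (−0.94, rho −0.84), Cep43 (−0.91, rho −0.89) and Rabgap1l (−0.90, rho −0.58). After group means were removed, its r was 0.46 with Arhgef6, 0.85 with Gnptab and 0.46 with Foxp1. It was then −0.87 with Spsb1, −0.57 with Cep43 and −0.66 with Rabgap1l.

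Slc2a1 was nearest to Cwf19l2 (0.94, rho 0.94), Utp15, a ribosome biogenesis factor (0.90, rho 0.90), and Oip5 (0.90, rho 0.91), and farthest from Mapk6 (−0.96, rho −0.96), Ccdc88c (−0.94, rho −0.94) and Map2k3 (−0.94, rho −0.93). With group means removed, its r with Mapk6 was −0.99, and with Cwf19l2 0.93, so this likeness lay among arrays of the same population. For Slc2a8 the nearest were Pik3cb (0.86, rho 0.73), Olfr351 (0.86, rho 0.82) and Tmem219 (0.85, rho 0.85), and the farthest Cdr2 (−0.84, rho −0.76), Tepsin (−0.84, rho −0.81) and Bace2 (−0.84, rho −0.82), all found with a signal near the array median.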

How the data were processed

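The deposited file holds log2 intensities per probe for 12 Illumina arrays, 1 per sample, made by the authors with GenomeStudio and limma 3.30.11, per the submitters' processing notes. How background was corrected and arrays were normalized is not stated there. The deposited values run on a log2 scale, judged by their range, with array medians of 4.66 to 4.68, and were used as they are. RNA was purified with Qiagen kits and labelled with biotin, per the labels.

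Of 31641 probes, 28197 had 1 gene symbol, 5 had several and 3439 had none in the platform annotation. Probes above the array median on at least 3 arrays (17579) were kept, and each gene was read from its brightest kept probe, giving 12119 genes. Differences were fitted in R 4.3.3 by limma 3.58.1 (eBayes at its defaults, 1 mean per group, all 12 arrays, 10.5 total degrees of freedom), two-sided, with Benjamini-Hochberg adjustment over all genes and a threshold of 0.05. The pipeline was tested on simulated data. Comparisons that share arrays are not independent.

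Replicate numbers were checked by correlating residuals of same-numbered arrays across genes. These were 0.519 to 0.589 between genotypes in Treg and 0.348 to 0.737 in Teff, so the numbers pair the genotypes, and −0.266 to 0.265 in Ctrl and 0.0413 to 0.325 in CKO between Treg and Teff. With this block 264 genes passed between genotypes in Treg, against 12 without, and 12 in Teff, against 2.

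The members and lists were chosen with earlier results of these data known. Named genes were the members, up to 4 per list by smallest unadjusted p in any comparison with all that passed, and for each member the 3 genes of highest and lowest r, clone names left out. Alternatives were other scalings, filters, probe rules, variance models, the block, only the arrays compared, and leaving out arrays. Leaving out both arrays of a number was chosen after seeing the data. List genes with no probe were not analysed here. Symbol matching found promoters for 3 of 4 members, and Slc2a3 was not among them.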

Additional observations from a re-analysis of the deposited data

Results flagged for a closer look

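Arrdc4, the arrestin-family gene beside Txnip, was lower in CKO in every Treg pair and higher in CKO in every Teff pair. How many of all genes have such a pattern of signs was not counted, so nothing is read from the pattern. CKO minus Ctrl was −0.43, −0.93 and −0.51 in Treg pairs 1, 2 and 3 and 0.81, 0.16 and 0.64 in Teff pairs 1, 2 and 3. The Treg difference minus the Teff difference was −1.16 on the log2 scale. This interaction missed the threshold in the fit without the pairs as a block (limma, adjusted p = 1.00). Under the alternatives the adjusted p (limma) of the Treg difference was 0.0909 at lowest. That of the Teff difference was 0.251 at lowest, with the pairs as a block. The Teff difference of 0.54 was −0.013 without Ctrl Teff 3, 0.33 without CKO Teff 1, 0.25 without CKO Teff 2, 1.01 without Ctrl Teff 2 and 1.03 without CKO Teff 3.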

How the results depend on the processing

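Of 428 recomputed member differences (16 differences under up to 27 alternatives), 407 kept their direction and their side of the threshold or stayed within 1 SD. Many alternatives could not move a difference, such as leaving out arrays outside it, and genotype differences had no p-value. The 407 is thus no measure of stability. Another 5 passed the threshold anew, all of them Slc2a3 between CKO Treg and CKO Teff, which share the CKO Treg values that helped to choose it. The other 16 changed sign, in 5 differences that were small. Scaling moved the median of all genes by at most 0.00623 (log2). The genotype differences of Slc2a6 and Slc2a3 changed sign under 0 alternatives. With the mean of a gene's probes Slc2a8 turned to 0.032 in Treg. With the 75th percentile filter Slc2a3 between CKO Treg and CKO Teff (−1.43) passed, and 8 genes were higher and 4 lower in CKO Treg, 1 higher in CKO Teff, and 41 higher and 41 lower between CKO Treg and CKO Teff. With the mean of probes 8 were higher in CKO Treg, and with every probe alone 33 were higher between CKO Treg and CKO Teff. Trend and robust settings gave 39 higher and 47 lower there, Slc2a3 passing (−1.43), and 0 list genes between genotypes in Treg. With the replicate number as a block the counts were 107 higher and 157 lower in CKO Treg with 3 list genes (Hif1a, Txnip and G6pc3), 5 and 7 in CKO Teff, and 9 and 11 between CKO Treg and CKO Teff. This block changed no call of a member between Treg and Teff. With only the arrays compared they were 11 and 14 in CKO Treg with 0 list genes, 0 higher in CKO Teff, 17 and 12 between Ctrl Treg and Ctrl Teff, and 2 and 2 between CKO Treg and CKO Teff. The causes were not tested.

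Leaving out 1 array at a time gave ranges per result. Between genotypes, Slc2a8 in Treg ran from −0.16 to 0.081 (positive without CKO Treg 2), Slc2a1 in Teff from −0.022 (without CKO Teff 3) to 0.45, Slc2a3 in Teff from −0.67 to −0.24 (without Ctrl Teff 3) and Slc2a8 in Teff from 0.090 (without CKO Teff 2) to 0.41 (without CKO Teff 1). Between Treg and Teff, Slc2a1 in Ctrl ran from −0.27 to 0.14 and Slc2a6 in Ctrl from −0.74 to −0.14, and in CKO Slc2a1 ran from 0.060 to 0.49, Slc2a3 from −1.71 to −1.23, Slc2a6 from −0.21 to 0.32 and Slc2a8 from −0.18 to 0.14. Genes passing ran from 0 to 11 higher and 5 to 9 lower in CKO Treg, from 0 to 47 and 0 to 5 in CKO Teff, from 28 to 96 and 16 to 67 between Ctrl Treg and Ctrl Teff, and from 9 to 113 and 7 to 146 between CKO Treg and CKO Teff. List genes passing ran from 0 to 1 in CKO Treg and from 0 to 2 between CKO Treg and CKO Teff.

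Leaving out both arrays of a number, chosen after seeing the data, turned Slc2a8 in Treg to 0.078 without number 2 of Treg. Between Ctrl Treg and Ctrl Teff, Slc2a1 turned to 0.11 without number 1 of Treg and to 0.14 without number 3 of Teff. Between CKO Treg and CKO Teff, Slc2a6 turned to −0.0063 and Slc2a8 to 0.10 without number 2 of Treg, and to −0.21 and 0.14 without number 2 of Teff, while Slc2a3 passed at −1.31 without number 3 of Teff. Counts that moved by over 1.5 times were 0 to 1 higher and 3 to 4 lower in CKO Treg without a Treg number, and 0, 16 and 12 higher with 4 and 13 lower without Teff numbers. In CKO Teff they were 25 higher and 2 lower without number 3 of Teff and 0 higher otherwise. Between Ctrl Treg and Ctrl Teff they were 16, 23 and 47 higher and 10, 14 and 29 lower without Treg numbers 1, 2 and 3, 24 and 14 without Teff number 1, and 155 and 112 with 1 list gene without Teff number 3. Between CKO Treg and CKO Teff they were 1, 7 and 12 higher and 0, 8 and 7 lower without Treg numbers 1, 2 and 3, 0 and 0 without Teff number 1, and 219 and 221 with 2 list genes without Teff number 3. The 75th percentile filter gave no value for Slc2a8. With 3 arrays a group, Slc2a8 and the other dim family members near the array median bound only large changes.

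Of the 30 list gene differences the text reports, 11 changed sign under some alternative, in 32 of 796 values, 0 of them past the threshold. Leaving out 1 array, the Treg genotype difference ran from −0.12 to 0.19 for Mlx, −0.15 to 0.13 for Slc16a3, −0.13 to 0.096 for Ldha and −0.047 to 0.047 for Slc5a2. The Teff genotype difference ran from −0.013 to 1.03 for Arrdc4, −0.18 to 0.34 for Bsg, −0.090 to 0.086 for Hif1a, −0.22 to 0.044 for Slc16a1, −0.078 to 0.078 for Slc16a3, −0.17 to 0.016 for Slc5a2 and −0.17 to 0.11 for Txnip. With the mean of probes Mlx turned to −0.083 and Slc16a3 to 0.046 in Treg. Without both arrays of a number, Slc16a3 turned to 0.17 and Ldha to −0.19 (Treg number 2), Slc5a2 to −0.028 and Mlx to −0.033 (Treg number 3), Txnip to 0.0044, Hif1a to −0.091 and Slc16a3 to −0.046 (Teff number 1), and Slc5a2 to 0.036 and Bsg to −0.038 (Teff number 2).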
